A study of Homo sapiens with 14 samples.

Results

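Aminoacyl-tRNA synthetases were described in 14 Human Transcriptome Array 2.0 arrays of U87MG, a human glioblastoma cell line. A gene was a member when its transcript cluster carried 1 gene symbol ending in ARS with or without a number, or was EPRS1, FARSA or FARSB, and the brightest cluster over the 14 arrays stood for the gene. This gave 36 members of 22465 genes, of which 18 encode enzymes of the cytosol alone, 16 encode mitochondrial enzymes, and 2 (GARS1 and KARS1) serve both compartments and are counted here with the cytosolic enzymes. Signals are the deposited log2 values, and differences are on that scale.

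WJT were 3 arrays of gliospheres kept for 7 days with conditioned medium (CM) of Wharton's jelly mesenchymal stem cells (MSCs). BMT were 3 arrays of gliospheres kept for 7 days with CM of bone marrow MSCs. Gliospheres were 3 arrays of untreated spheres, grown in ultralow attachment plates in neuromedia with N2, B27, EGF, bFGF and LIF from cells sorted for CD133 by FACS, and the treated spheres were at passage 13. Negative spheres (2 arrays) are labelled as growing glioma spheroids that are not stem cells, while the study's methods describe them as the sorted negative population, which stopped making spheres. Cell line (3 arrays) was untreated cultured U87MG. All 14 arrays come from 1 cell line, and negative spheres and cell line were also pooled here as a control of 5 arrays. The study names both for its control group but speaks of triplicates, so the arrays behind its own control cannot be named here, and values against the control, CARS2's among them, rest on this pool. The labels call the arrays of gliospheres, BMT, WJT and negative spheres biological replicates, and those of the cell line replicates. The study's methods state that CM of individual MSC samples was used, from 3 samples of each type. The labels do not say which MSC sample or which culture an array comes from. Each p-value therefore measures the spread between these arrays, and how much of it is technical cannot be told.

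Each of these enzymes joins an amino acid to its tRNA, the step that sets the reading of the genetic code. The cytosolic set charges the tRNAs read by cytosolic ribosomes, and a separate nuclear-encoded set is imported into mitochondria to charge the tRNAs encoded by the mitochondrial genome. The enzymes fall into class I and class II by the fold of their catalytic core, with 19 and 17 members measured here. In animals several cytosolic synthetases are held in a multisynthetase complex, of which 7 were measured (EPRS1, IARS1, LARS1, MARS1, QARS1, RARS1 and KARS1). Many cytosolic synthetase genes are targets of ATF4, the transcription factor of the amino acid response, in mammalian cells.

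Arrays of WJT and BMT were alike within their groups, with correlations across clusters of 0.9907 to 0.9942 in WJT and 0.9903 to 0.9917 in BMT, against 0.9643 to 0.9834 in gliospheres. The 2 arrays of negative spheres correlated at 0.9846, and those of the cell line at 0.9283 to 0.9612. The spread of the members followed the same order, with a median SD of 0.11 in WJT, 0.12 in BMT, 0.32 in gliospheres, 0.21 in negative spheres and 0.37 in the cell line. PROM1, which encodes the CD133 used for the sort, read 3.36 to 3.65 over all arrays, and SOX2 read 3.41 to 3.97. Both were near the array medians of 3.58 to 3.92, so the RNA signal of these markers did not show the labelled stem cell identity. The sort was on CD133 protein, which the arrays do not measure. The study reports CD133 in the sorted spheres by flow cytometry, and CD133 and SOX2 by immunocytochemistry. On its PCR array PROM1 was higher in gliospheres than in control, without significance. NES read 4.13 to 4.84 and PAX6 5.31 to 6.35, and the leukocyte markers PTPRC, CD3E and CD14 lay between 2.88 and 3.89. The 4 dimmest members, AARS2, MARS2, SARS2 and VARS2, had means of 4.43, 4.71, 4.14 and 4.12, close to that background, and their differences are bounded by it.

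Among the members, CARS2 was the 1 gene that passed the test. CARS2 encodes the cysteinyl-tRNA synthetase of mitochondria. Its log2 signal was 8.71, 8.43 and 7.87 in gliospheres replicates 1 to 3. In the control arrays it was 9.39 and 9.72 in negative spheres and 9.70, 9.22 and 10.47 in the cell line. Every gliospheres array lay below every control array. The mean was 8.33 ± 0.43 in gliospheres (SD, n = 3) and 9.70 ± 0.48 in control (SD, n = 5). The difference was -1.37 (SE 0.26, 95% interval -1.93 to -0.80), a 2.58-fold lower signal with an adjusted p of 0.0444 (limma, Benjamini-Hochberg over the 67528 clusters tested). In such bulk samples, fewer cells of a type and less RNA per cell cannot be told apart. The call was lost in 16 of 23 alternative settings, among them the fit of 5 groups (adjusted p = 0.055), the replicate number as a block (0.0713) and the fits without gliospheres replicate 2 (0.125) or 3 (0.14), while the difference stayed between -1.55 and -1.13.

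CARS2 was lower still by its mean in the treated spheres. It read 7.37, 7.42 and 7.60 in WJT and 8.03, 7.51 and 7.70 in BMT. All WJT arrays lay below the lowest untreated gliospheres array, 7.87, whereas BMT replicate 1 lay above it. Neither treatment differed from gliospheres after adjustment, with differences of -0.87 in WJT (SE 0.29, adjusted p = 0.589) and -0.59 in BMT (SE 0.29, adjusted p = 0.618). WJT minus BMT was -0.28, with a 95% interval of -0.92 to 0.35. In the limma F-test over the 4 groups CARS2 had F = 31.97 and an adjusted p of 0.00438, and it was the 1 member to pass that test, which 1.89% of all genes passed. The order of the 5 group means was WJT, BMT, gliospheres, negative spheres and cell line from low to high. WJT and BMT overlapped, so did BMT and gliospheres, and so did negative spheres and cell line, since negative spheres minus cell line was -0.24 (95% interval -0.97 to 0.49). Against each control group alone, gliospheres were lower by 1.22 for negative spheres (adjusted p = 0.259) and by 1.46 for the cell line (adjusted p = 0.0793), and neither of these passed.

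**Figure D1:**
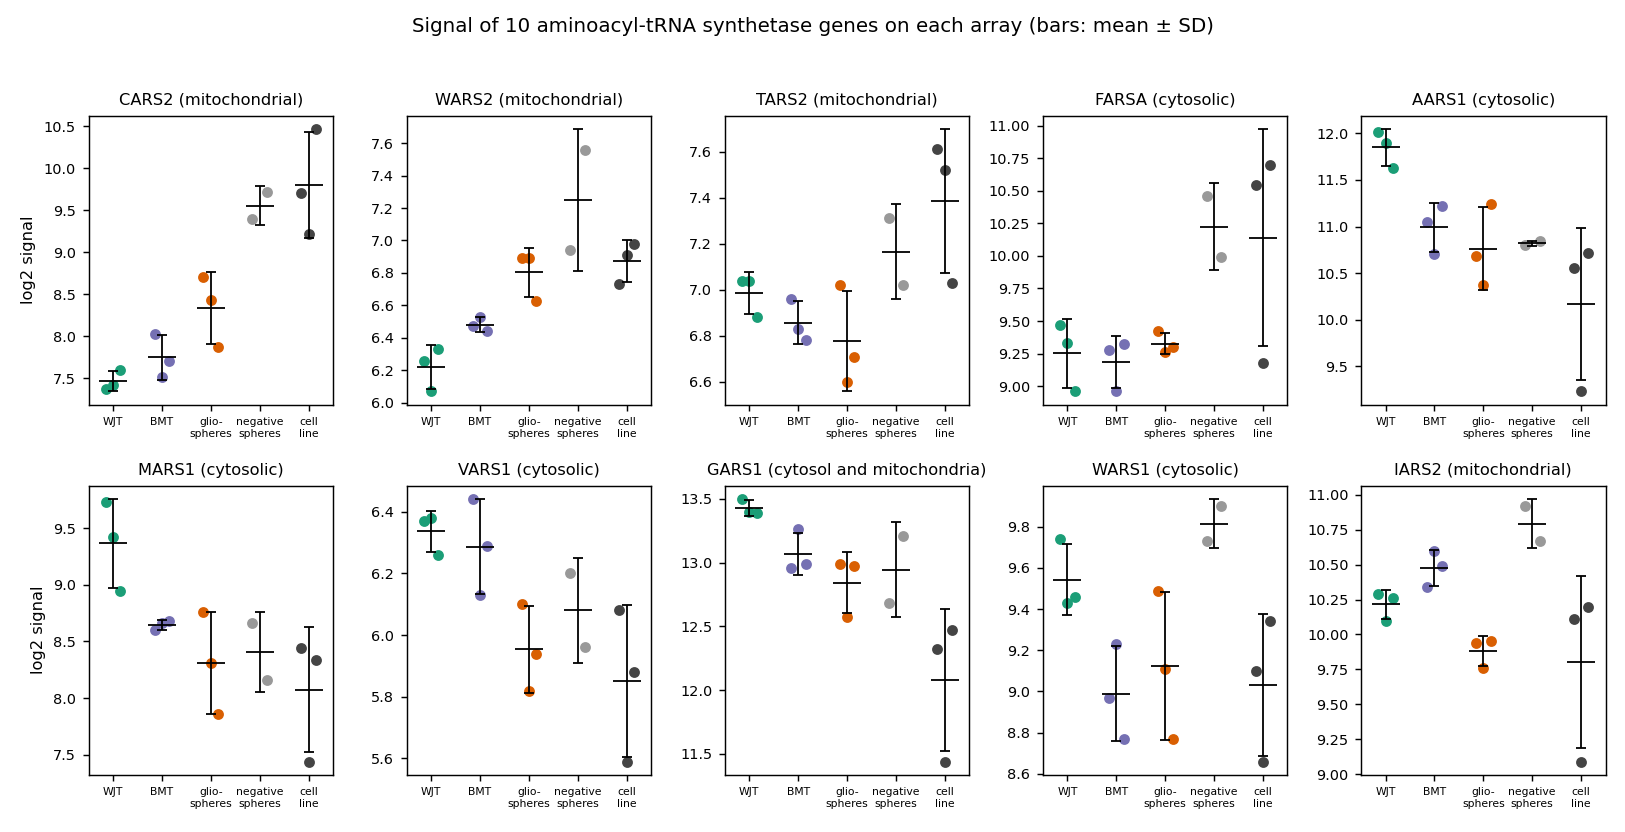
Log2 signal of 10 synthetase genes on each array, with WJT, BMT, gliospheres, negative spheres and cell line from left to right in each panel; points are arrays and bars the mean ± SD. CARS2 lies at or below 8.71 in all WJT, BMT and gliospheres arrays and at or above 9.22 in all negative spheres and cell line arrays, and AARS1 and MARS1 are highest in WJT.

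WJT was set against untreated gliospheres to ask what CM of Wharton's jelly MSCs does. No member passed the adjusted test in either direction, and of all genes 0.0% passed. At an unadjusted p below 0.05, 3 of 36 members were higher in WJT, where 3.29% of all genes were, and 3 of 36 were lower, where 4.33% of all genes were. The members' own share was 8.3% in each direction. The 3 higher members, AARS1, MARS1 and VARS1, encode cytosolic enzymes, and of the 3 lower ones CARS2 and WARS2 encode mitochondrial enzymes and HARS1 a cytosolic one.

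AARS1 encodes the alanyl-tRNA synthetase of the cytosol. Its log2 signal was 12.02, 11.90 and 11.63 in WJT, against 10.68, 10.37 and 11.24 in gliospheres. The groups did not overlap. The difference was 1.09 (SE 0.38, 95% interval 0.27 to 1.90), 2.12-fold, with an adjusted p of 0.613. MARS1 encodes the methionyl-tRNA synthetase, which also charges the initiator tRNA and belongs to the multisynthetase complex. It read 9.73, 9.42 and 8.95 in WJT, against 8.76, 8.31 and 7.86 in gliospheres, again with no overlap, although WJT replicate 3 and gliospheres replicate 1 lay close. MARS1 differed by 1.06 (SE 0.30, 95% interval 0.40 to 1.72), 2.08-fold, with an adjusted p of 0.475. VARS1, the valyl-tRNA synthetase, read 6.37, 6.38 and 6.26 in WJT, against 6.10, 5.82 and 5.94 in gliospheres, a difference of 0.39 (SE 0.14, adjusted p = 0.672).

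On the lower side, WARS2, the tryptophanyl-tRNA synthetase of mitochondria, read 6.26, 6.07 and 6.33 in WJT, against 6.89, 6.89 and 6.63 in gliospheres. The 3 arrays of each group lay apart, and the difference was -0.59 (SE 0.17, 95% interval -0.96 to -0.21, adjusted p = 0.499). HARS1, the cytosolic histidyl-tRNA synthetase, read 7.01, 6.91 and 7.06 in WJT and 7.67, 7.36 and 7.14 in gliospheres, a difference of -0.40 (SE 0.16, adjusted p = 0.731) that was -0.25 without gliospheres replicate 1. The counts depended on single arrays. Without gliospheres replicate 1, 7 members were higher and 1 lower. Without gliospheres replicate 3, 6 were lower, and without cell line replicate 2, which enters only through the shared variance, 5 were higher and 5 lower. Without negative spheres replicate 2, 5 were higher.

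By compartment, the median difference of WJT against gliospheres was 0.35 over the 20 cytosolic members and -0.05 over the 16 mitochondrial members, beside 0.00 over all genes. Positive differences were found in 13 of 20 cytosolic and 7 of 16 mitochondrial members. The cytosolic members ranged from -0.60 (FARSB) to 1.09 (AARS1), and the mitochondrial members from -0.87 (CARS2) to 0.34 (IARS2). The 7 measured members of the multisynthetase complex had a median of 0.34, against 0.36 for the other 13 cytosolic members, and class I and class II enzymes had medians of 0.08 and 0.07.

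**Figure D2:**
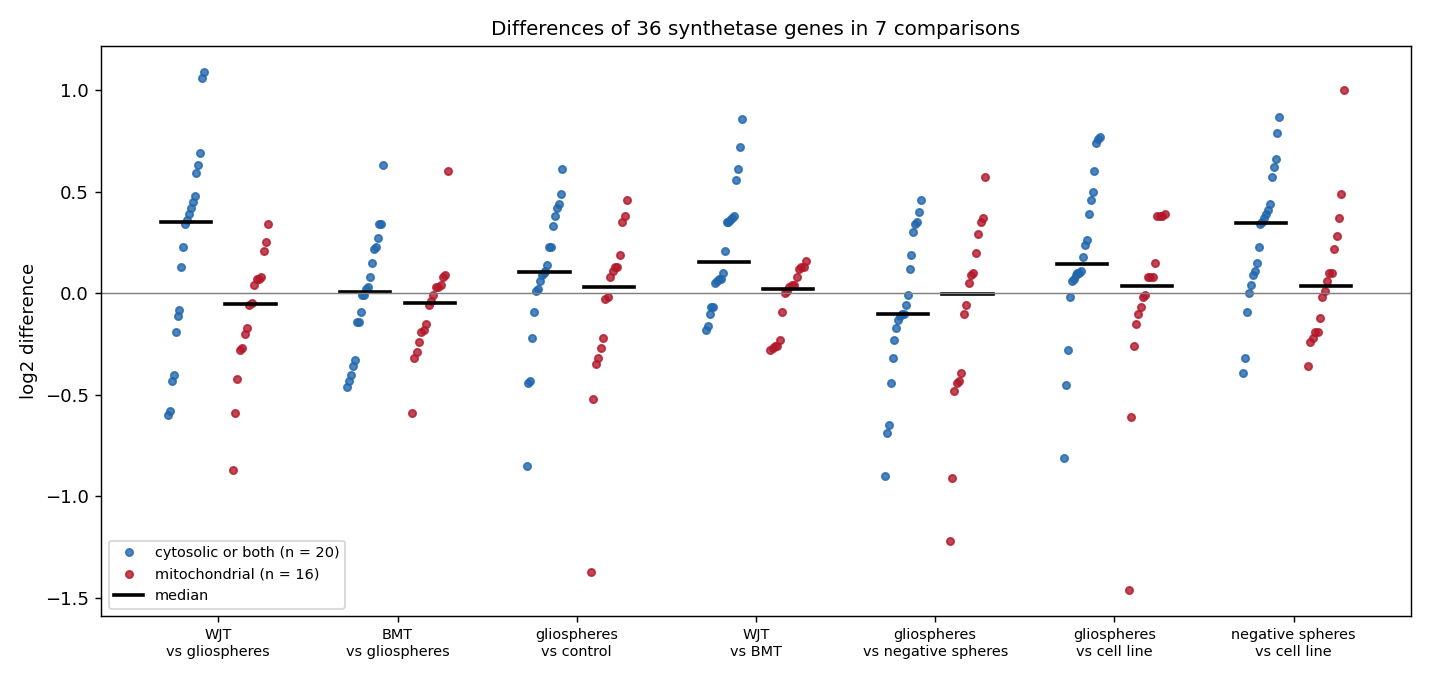
Log2 differences of the 36 members in 7 comparisons, with 20 cytosolic or dual members in blue, 16 mitochondrial members in red and black lines at the medians. In WJT against gliospheres the cytosolic median is 0.35 and the mitochondrial median -0.05, and CARS2 is the lowest point where gliospheres are set against control or its parts.

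The arrays of the untreated group were not alike in this. Each array's median deviation of the cytosolic members from their means over 14 arrays was 0.42, 0.17 and 0.15 in WJT, 0.02, 0.08 and -0.01 in BMT, and 0.41, -0.12 and -0.33 in gliospheres. Gliospheres replicate 1 thus lay close to the highest WJT array. Negative spheres had -0.12 and 0.12, and the cell line -0.34, -0.34 and -0.18. For the mitochondrial members the same medians stayed between -0.11 and 0.06 in all arrays. The CM was made by stromal cells and, per the study's methods, was centrifuged and filtered before use. Markers of stromal cells also stood higher in the treated spheres than in untreated gliospheres. All 7 measured had positive differences in WJT against gliospheres (median 0.65) and 6 of 7 in BMT against gliospheres (median 0.46), with 2 and 1 at an unadjusted p below 0.05, where 3.29% and 4.34% of all genes were higher. Their summed log2 signal was 58.7 to 60.1 in WJT, 57.4 to 58.0 in BMT, 50.9 to 57.5 in gliospheres, 53.1 to 53.2 in negative spheres and 49.6 to 62.3 in the cell line, while THY1 stayed near background in all arrays (3.11 to 3.61). The part of these markers in the synthetase results was not tested. The cytosolic median of WJT against gliospheres, 0.35 with all arrays, was 0.18 without gliospheres replicate 3 and 0.50 without replicate 1.

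**Figure D3:**
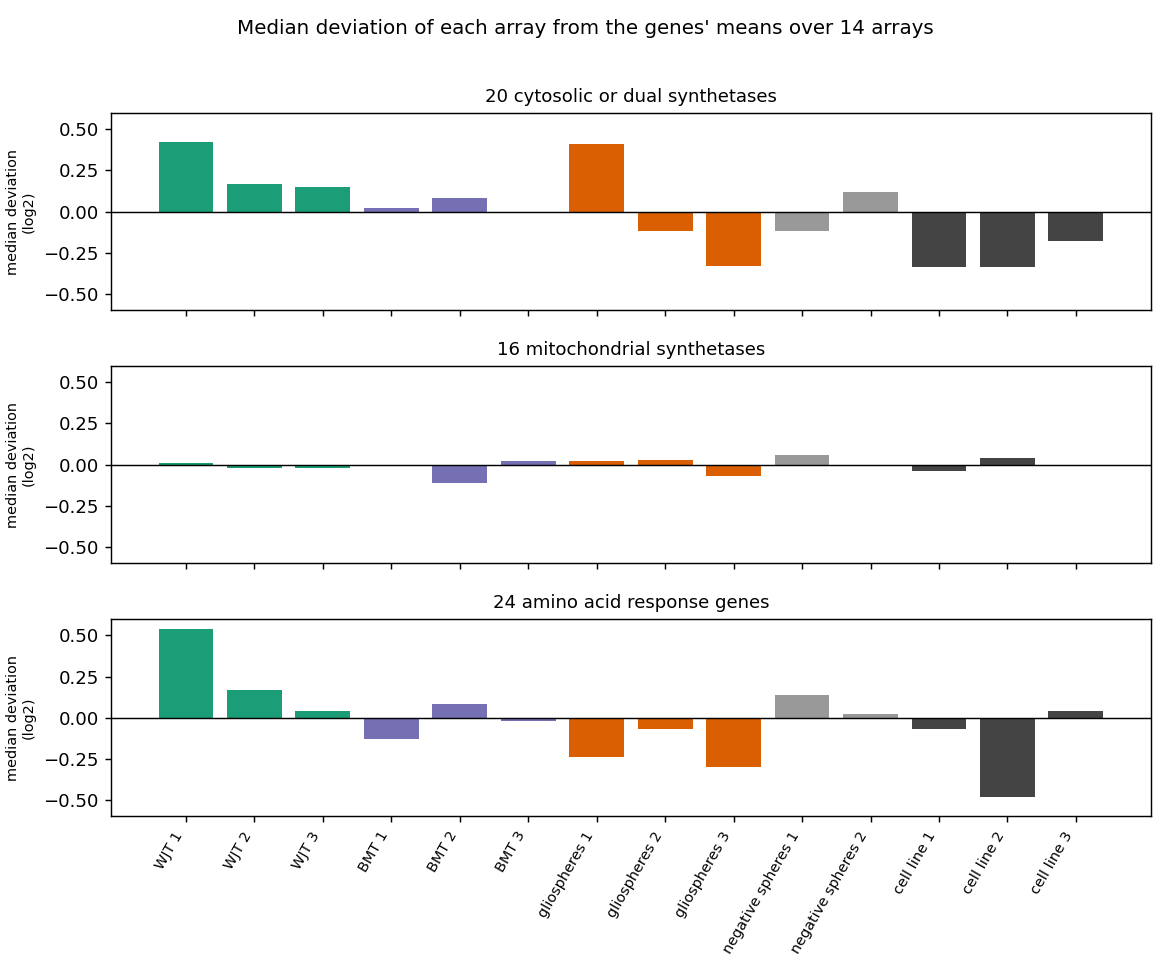
Median deviation (log2) of each array from the genes' means over 14 arrays, for the cytosolic members, the mitochondrial members and 24 amino acid response genes; each bar is an array, coloured by group, with WJT at the left and the cell line at the right. Cytosolic medians run from -0.34 to 0.42 and mitochondrial medians from -0.11 to 0.06.

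EPRS1, GARS1, WARS1 and KARS1 were followed in all groups. EPRS1 joins the glutamyl- and prolyl-tRNA synthetases in 1 protein and is known from the GAIT complex, which represses translation of some mRNAs after interferon gamma. It read 11.70, 11.69 and 11.61 in WJT, 10.92, 11.09 and 11.15 in BMT, and 11.60, 10.73 and 10.77 in gliospheres. WJT was higher by 0.63 than gliospheres (SE 0.39, adjusted p = 0.944). In negative spheres it read 11.04 and 11.49, and in the cell line 10.25, 11.95 and 10.36, so that the cell line covered the range of all other groups. GARS1, the glycyl-tRNA synthetase of both compartments, read 13.50, 13.40 and 13.39 in WJT, 12.96, 13.26 and 12.99 in BMT, and 12.99, 12.57 and 12.97 in gliospheres. All WJT arrays lay above all gliospheres arrays, with a difference of 0.59 (SE 0.33, adjusted p = 0.913).

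WARS1, the cytosolic tryptophanyl-tRNA synthetase, is known as an interferon gamma target. It read 9.74, 9.43 and 9.46 in WJT, 8.97, 9.23 and 8.77 in BMT, and 9.49, 9.11 and 8.77 in gliospheres. WJT and gliospheres overlapped, with a difference of 0.42 (SE 0.29, adjusted p = 0.96). Over 12 interferon gamma targets, 2 were higher and 1 lower in WJT than in gliospheres at an unadjusted p below 0.05, with a median of 0.03, where 3.29% of all genes were higher and 4.33% lower. Among them IRF1, the transcription factor induced early by interferon gamma, differed by 0.70 in WJT (SE 0.10, adjusted p = 0.104) and by 0.58 in BMT (SE 0.10, adjusted p = 0.129). CIITA, the 1 target counted as lower in WJT, differed by -0.47 there (SE 0.17, adjusted p = 0.63). In BMT it differed by -0.67 (SE 0.17, adjusted p = 0.29). KARS1, the lysyl-tRNA synthetase of both compartments, read 11.77, 11.29 and 11.40 in WJT, 11.46, 11.71 and 11.58 in BMT, and 12.29, 11.90 and 10.83 in gliospheres. The gliospheres arrays of KARS1 enclosed all treated arrays.

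BMT was set against gliospheres in the same fit and shares its 3 gliospheres arrays with the WJT comparison. No member passed the adjusted test, which 0.0134% of all genes passed. At an unadjusted p below 0.05, 1 of 36 members was higher, where 4.34% of all genes were, and 1 was lower, where 4.71% were, while the members' own share was 2.8% in each direction. Left-out arrays moved these counts between 0 and 3 for higher and between 0 and 6 for lower, with the most lower ones when gliospheres replicate 3 was left out. The higher one was VARS1, with 6.44, 6.13 and 6.29 in BMT against 6.10, 5.82 and 5.94 in gliospheres, a difference of 0.34 (SE 0.14, adjusted p = 0.556). The lower one was EARS2, the glutamyl-tRNA synthetase of mitochondria, with 5.19, 5.0 and 5.12 in BMT against 5.36, 5.23 and 5.28 in gliospheres, a difference of -0.18 (SE 0.08, adjusted p = 0.564).

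Medians in BMT against gliospheres were 0.01 over the cytosolic and -0.05 over the mitochondrial members, beside 0.02 over all genes. Other cytosolic members followed by p. IARS1, the isoleucyl-tRNA synthetase of the complex, read 12.73, 12.77 and 12.70 in BMT, against 13.04, 11.93 and 11.34 in gliospheres. Its difference of 0.63 (SE 0.35) was 1.10 without gliospheres replicate 1 and 0.24 without gliospheres replicate 3. QARS1, the glutaminyl-tRNA synthetase, read 9.14, 8.59 and 8.73 in BMT, against 8.97, 8.89 and 9.97 in gliospheres, a difference of -0.46 (SE 0.30), which was -0.11 without gliospheres replicate 3. HARS1 read 7.20, 7.03 and 6.96 in BMT, and its difference was -0.33 (SE 0.16, adjusted p = 0.609), or -0.18 without gliospheres replicate 1.

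WJT and BMT were compared with each other to ask whether the source of the MSCs mattered. No member passed the adjusted test, and 0.0% of all genes did. Without adjustment, at a p below 0.05, 2 of 36 members were higher in WJT, where 1.36% of all genes were, and 0 were lower, where 1.17% were, so that the members' share was 5.6% for higher. The higher ones were AARS1, with 12.02, 11.90 and 11.63 in WJT against 11.05, 10.70 and 11.22 in BMT, and MARS1, with 9.73, 9.42 and 8.95 in WJT against 8.60, 8.66 and 8.68 in BMT. The groups did not overlap for either gene. AARS1 differed by 0.86 (SE 0.38, 95% interval 0.04 to 1.68) and MARS1 by 0.72 (SE 0.30, 95% interval 0.06 to 1.38), and the adjusted p was 1.0 for both.

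WARS1 (0.56, SE 0.29) and CARS1, the cytosolic cysteinyl-tRNA synthetase (0.37, SE 0.21), were next among the cytosolic enzymes. CARS1 read 7.73, 7.43 and 7.30 in WJT and 7.15, 7.24 and 6.98 in BMT, and neither gene overlapped between WJT and BMT. Without WJT replicate 1 the difference of CARS1 was 0.24. Among the mitochondrial enzymes, EARS2 differed by 0.13 (SE 0.08), or 0.08 without BMT replicate 2, and WARS2 by -0.26 (SE 0.17). The median over the cytosolic members was 0.16 and over the mitochondrial members 0.02, beside -0.02 over all genes, and 15 of 20 cytosolic members had a positive difference. Of the 20 cytosolic members, WJT had the highest mean of the 5 groups in 12 and BMT in 0, and the cell line had the lowest mean in 11. Of the 16 mitochondrial members, WJT had the highest mean in 2. These counts of highest and lowest means were not made over all genes, so they have no share to be set beside. At an unadjusted p below 0.05, 0 members were higher in WJT than in BMT without WJT replicate 1 or 2 or BMT replicate 1 or 2. In a fit of only these 2 groups, 8 were higher.

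**Figure D4:**
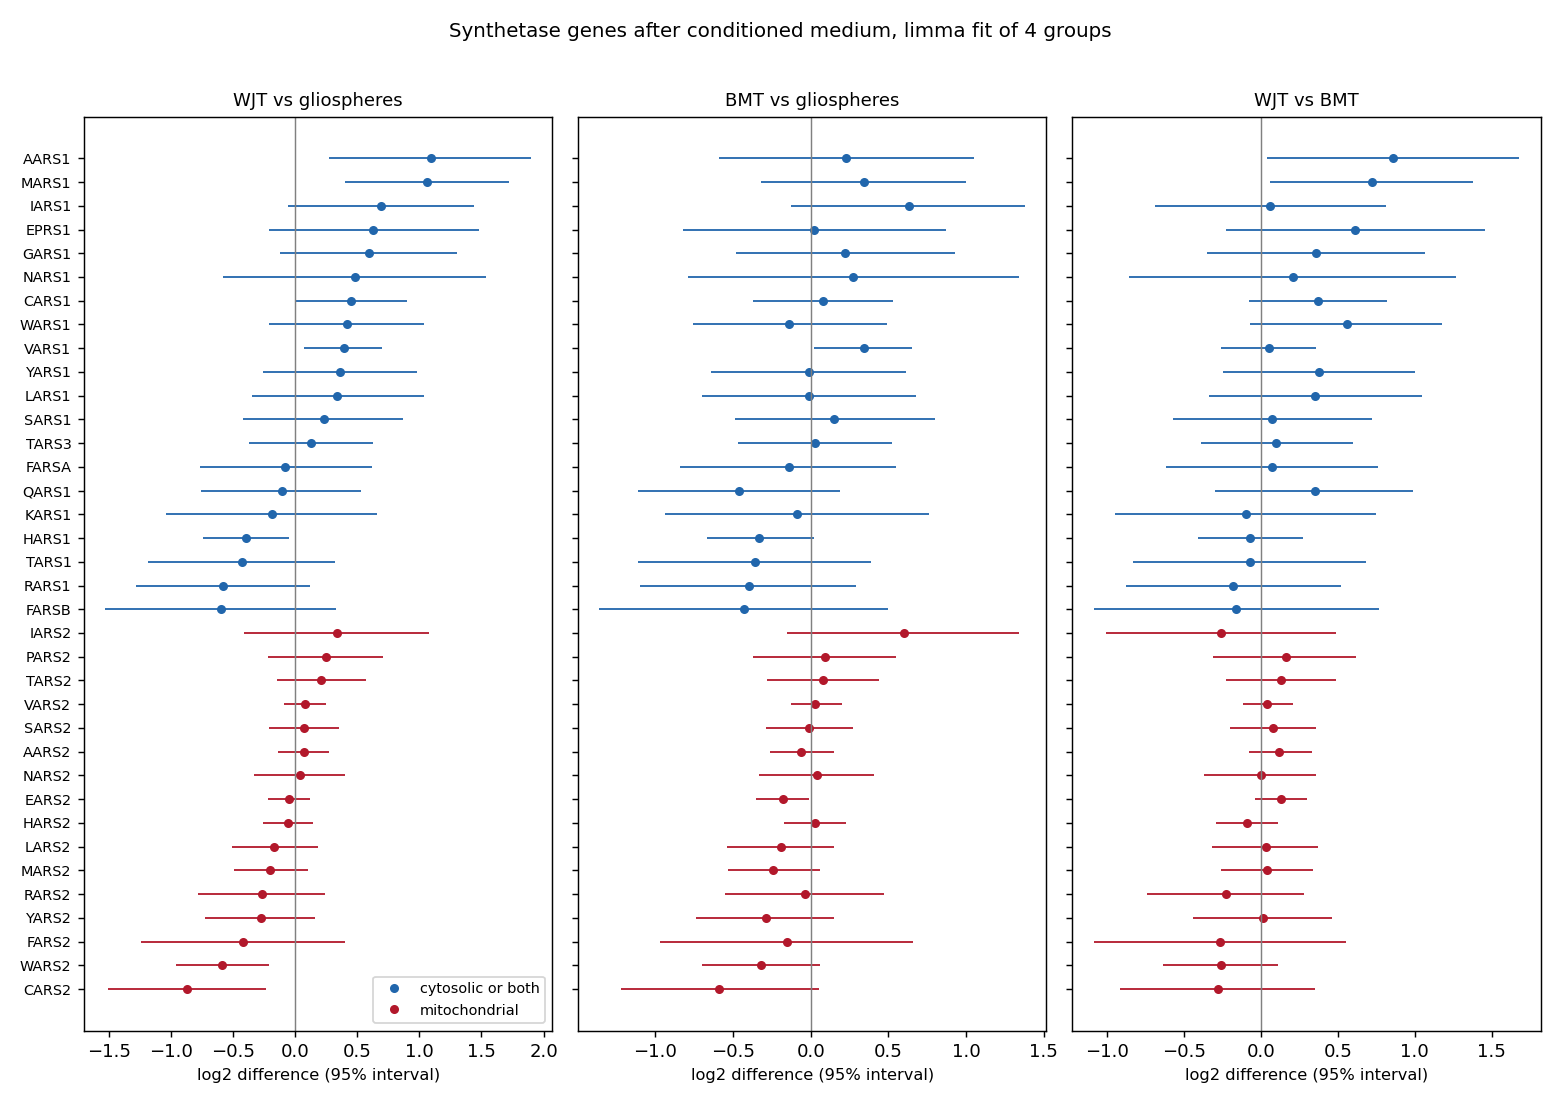
Log2 differences with 95% intervals (not adjusted for the number of genes) of the 36 members for WJT against gliospheres, BMT against gliospheres and WJT against BMT, ordered by the first within cytosolic (blue) and mitochondrial (red) enzymes. AARS1 and MARS1 lie at 1.09 and 1.06 in WJT against gliospheres, and at 0.23 and 0.34 in BMT against gliospheres.

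Promoters of the members were read to show what surrounds their start sites. RefSeq (GRCh38.p14) sequences from 250 bases before to 50 bases after the start of a gene were searched on both strands for TGATGNAA, the core letters of the C/EBP-ATF response element bound by ATF4 and its partners. No other motif was searched. Where a gene has several starts in the table, the first listed was used. A match was found in 7 of 30 member promoters held in the table, which is 23.3%, against 3.67% (1003) of 27305 promoters of all genes. By compartment, 6 of 16 cytosolic promoters (37.5%) and 1 of 14 mitochondrial promoters (7.14%) held it. Of 19 promoters of amino acid response genes other than synthetases, 3 (15.8%) held it. Windows of 30 bases around each match in a member follow, with the match in capitals.
AARS1, chr16:70289675-70289704, + strand: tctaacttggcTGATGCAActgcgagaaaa
MARS1, chr12:57488053-57488082, - strand: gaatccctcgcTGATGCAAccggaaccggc
IARS1, chr9:92293692-92293721, + strand: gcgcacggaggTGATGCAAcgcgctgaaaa
NARS1, chr18:57621804-57621833, - strand: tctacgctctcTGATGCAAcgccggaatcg
CARS1, chr11:3057407-3057436, + strand: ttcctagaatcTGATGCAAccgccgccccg
TARS1, chr5:33440956-33440985, - strand: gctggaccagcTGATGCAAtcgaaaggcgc
YARS2, chr12:32756076-32756105, - strand: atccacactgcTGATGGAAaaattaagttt

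The 6 cytosolic genes share TGATGCAA, and YARS2, the tyrosyl-tRNA synthetase of mitochondria, holds TGATGGAA. In CARS1, IARS1, MARS1, TARS1 and NARS1 the match began between 13 bases before and 14 bases after the start used, which for TARS1 is the more downstream of the 2 listed, and in AARS1 and YARS2 it lay 187 and 197 bases before it. The differences of WJT against gliospheres were 1.09 for AARS1, 1.06 for MARS1, 0.69 for IARS1, 0.48 for NARS1 (the asparaginyl-tRNA synthetase), 0.45 for CARS1, -0.43 for TARS1 (the threonyl-tRNA synthetase) and -0.27 for YARS2. Of these 7 genes, 5 were positive, beside 13 of the 20 cytosolic members and 20 of all 36 members. AARS1 and MARS1 were the ones of the 7 with an unadjusted p below 0.05. EPRS1, GARS1, IARS2 and VARS1 also lay above gliospheres in all WJT arrays and are not among the matches. For these genes, a promoter without the letters and a promoter missing from the table are not told apart here. A link between the match and the difference was not tested. A match describes these letters in this window and is no evidence of binding.

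Genes of the amino acid response other than synthetases were counted beside them. Of 24 measured, 10 were higher and 0 lower in WJT than in gliospheres at an unadjusted p below 0.05, where 3.29% of all genes were higher, and none passed after adjustment. Their median difference was 0.29. PSAT1, an enzyme of serine synthesis, read 13.26, 12.32 and 11.48 in WJT and 10.80, 9.49 and 10.22 in gliospheres, a difference of 2.19 (SE 0.64, adjusted p = 0.485). ASNS, the asparagine synthetase and a standard ATF4 target, read 8.77, 8.44 and 7.91 in WJT and 6.67, 6.36 and 6.76 in gliospheres, a difference of 1.77 (SE 0.36, adjusted p = 0.191). ALDH1L2, a mitochondrial folate enzyme, differed by 1.72 (SE 0.29, adjusted p = 0.119), and CTH, the cystathionine gamma-lyase, by 1.37 (SE 0.32, adjusted p = 0.29). No array of WJT overlapped gliospheres for these 4 genes, which were the ones of smallest p in the list. The share of all genes without overlap was not counted. Of the 24 genes, 20 had a positive difference and 4 a negative one. ATF4 itself overlapped, with 11.39, 10.81 and 10.71 in WJT against 10.84, 11.10 and 10.53 in gliospheres. DDIT3, also in the list, overlapped too, with 6.48, 5.30 and 5.09 in WJT against 5.52, 6.47 and 4.98 in gliospheres.

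In BMT against gliospheres, 0 of the 24 were past an unadjusted p of 0.05 in either direction, and the median was 0.17. In WJT against BMT, 5 of 24 were higher, where 1.36% of all genes were, with a median of 0.31. The medians of this list per array were 0.54, 0.17 and 0.04 in WJT, -0.13, 0.08 and -0.02 in BMT and -0.24, -0.07 and -0.30 in gliospheres, so that unlike the cytosolic synthetases it was not high in gliospheres replicate 1. Of 14 amino acid transporters, 3 were higher and 1 lower in WJT than in gliospheres at an unadjusted p below 0.05, where 3.29% of all genes were higher and 4.33% lower. SLC7A5, the light chain of the LAT1 transporter of large neutral amino acids, read 8.43, 8.05 and 7.10 in WJT and 6.36, 5.89 and 5.92 in gliospheres, a difference of 1.80 (SE 0.44, adjusted p = 0.328).

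Other steps of translation were counted in the same way. Of 6 mitochondrial factors of translation initiation, elongation, release and recycling, 0 were higher and 3 lower in WJT than in gliospheres at an unadjusted p below 0.05, with a median of -0.35, where 3.29% of all genes were higher and 4.33% lower. The 3 lower ones were MRRF, the initiation factor MTIF2 and the elongation factor GFM1. MRRF, the mitochondrial ribosome recycling factor, read 7.66, 7.66 and 7.59 in WJT and 9.31, 8.52 and 8.44 in gliospheres, a difference of -1.12 (SE 0.34, adjusted p = 0.524). Of 14 genes of tRNA processing, 0 were higher and 3 lower, with a median of -0.12, and of 4 cytosolic elongation factors 0 were higher and 1 lower, beside the same shares of all genes. AIMP1, the measured scaffold protein of the multisynthetase complex, had a difference of -0.61 (SE 0.38, adjusted p = 0.944), and AIMP2 and EEF1E1 were not analysed here. In BMT against gliospheres, 0 of the 6 mitochondrial factors were higher and 1 lower at that p, with a median of -0.23. The lower one was MRRF (-0.90, SE 0.34). Also lower there were 2 of 14 tRNA processing genes and 1 of 4 cytosolic elongation factors, with 0 higher. Of all genes 4.34% were higher and 4.71% lower. Between WJT and BMT, 0 genes of these lists were past that p, where 1.36% of all genes were higher and 1.17% lower.

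Gliospheres were set against control to describe the sorted spheres themselves. Besides CARS2, no member passed, and 1.01% of all genes did. At an unadjusted p below 0.05, 3 of 36 members were higher in gliospheres, where 8.29% of all genes were, and 4 were lower, where 6.28% were. The members' shares were 8.3% and 11.1%. Without gliospheres replicate 1 the higher count was 0, without cell line replicate 1 it was 1, and without gliospheres replicate 3 or cell line replicate 2 it was 5. Of the 7, 6 encode mitochondrial enzymes, 3 in each direction, while 16 of all 36 members do. The 3 higher ones, MARS2, LARS2 and YARS2, were named after their values were seen and had differences of 0.38, 0.35 and 0.46. The 4 lower ones were CARS2, TARS2, FARSA and SARS2. MARS2 and SARS2 are among the 4 dimmest members, close to background. The median over all members was 0.10, beside -0.04 over all genes. In the lists around the synthetases, 2 genes passed. EIF2AK2, the kinase of eIF2 alpha that senses double-stranded RNA, read 12.24, 11.89 and 11.97 in gliospheres, against 10.61 and 10.79 in negative spheres and 10.68, 10.73 and 11.06 in the cell line, and rose by 1.26 (SE 0.19, adjusted p = 0.0153). STC2, a secreted glycoprotein and ATF4 target, read 4.70, 4.63 and 4.80 in gliospheres, against 5.81 and 6.81 in negative spheres and 6.13, 5.70 and 6.48 in the cell line, and fell by 1.47 (SE 0.21, adjusted p = 0.0102).

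TARS2, the threonyl-tRNA synthetase of mitochondria, read 7.02, 6.60 and 6.71 in gliospheres, against 7.31 and 7.02 in negative spheres and 7.61, 7.52 and 7.03 in the cell line. Gliospheres replicate 1 reached the lowest control arrays, and the difference was -0.52 (SE 0.15, 95% interval -0.84 to -0.20, adjusted p = 0.175). FARSA encodes the alpha subunit of the cytosolic phenylalanyl-tRNA synthetase. It read 9.42, 9.26 and 9.30 in gliospheres, against 10.46 and 9.99 in negative spheres and 10.54, 9.18 and 10.70 in the cell line. Cell line replicate 2 stood alone at the level of the gliospheres. The difference was -0.85 (SE 0.28, adjusted p = 0.265), and without cell line replicate 2 it was -1.09 with an adjusted p of 0.0194. FARSB, the beta subunit of the same enzyme, had the widest spread in gliospheres of all members, with an SD of 1.20 over 3 arrays.

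TARS1, QARS1 and TARS3 were the other cytosolic members of lowest p. TARS1 read 12.26, 12.24 and 11.58 in gliospheres, against 11.41 and 11.84 in negative spheres and 10.40, 12.11 and 11.30 in the cell line, a difference of 0.61 (SE 0.31, adjusted p = 0.507) that was 0.36 without cell line replicate 1. QARS1 differed by 0.49 (SE 0.27) and by 0.15 without gliospheres replicate 3. TARS3, another cytosolic threonyl-tRNA synthetase, read 6.79, 7.00 and 6.99 in gliospheres, against 6.37 and 6.78 in negative spheres and 6.77, 6.99 and 5.85 in the cell line, a difference of 0.38 (SE 0.20, adjusted p = 0.545) that was 0.20 without cell line replicate 3.

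Each part of the control was then taken alone, in a fit of 5 groups. Gliospheres and negative spheres differed in no member after adjustment, and in 0.272% of all genes. At an unadjusted p below 0.05, 3 of 36 members were higher in gliospheres, where 5.3% of all genes were, and 6 were lower, where 5.0% were. The members' shares were 8.3% and 16.7%. SARS2, the seryl-tRNA synthetase of mitochondria, read 3.96, 4.09 and 4.03 in gliospheres and 4.60 and 4.33 in negative spheres, near background, with a difference of -0.43 (SE 0.12, adjusted p = 0.29). WARS1 read 9.49, 9.11 and 8.77 in gliospheres, all below the 9.73 and 9.90 in negative spheres, with a difference of -0.69 (SE 0.24, adjusted p = 0.41). FARSA differed by -0.90 (SE 0.37, adjusted p = 0.544), IARS1 by -0.65 (SE 0.39) and TARS3 by 0.35 (SE 0.27). IARS1 was at -1.12 without gliospheres replicate 1 and at -0.27 without gliospheres replicate 3, and TARS3 at 0.15 and 0.56 without negative spheres replicate 1 or 2. The lower count was 3 without gliospheres replicate 3. The higher count was 0 without gliospheres replicate 1 or negative spheres replicate 2, and 1 without negative spheres replicate 1.

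Between gliospheres and cell line, no member and 0.539% of all genes passed after adjustment. Before adjustment, 5 of 36 members had a p below 0.05 and were higher in gliospheres, where 7.77% of all genes were, and 3 were lower, where 6.25% were. The members' shares were 13.9% and 8.3%. GARS1 read 12.99, 12.57 and 12.97 in gliospheres, against 12.32, 11.44 and 12.47 in the cell line, with no overlap and a difference of 0.77 (SE 0.25, adjusted p = 0.253). QARS1 read 8.97, 8.89 and 9.97 in gliospheres, against 8.71, 8.37 and 8.52 in the cell line, a difference of 0.74 (SE 0.26, adjusted p = 0.304). TARS2 differed by -0.61 (SE 0.16, adjusted p = 0.169), TARS1 by 0.76 (SE 0.35) and FARSA by -0.81 (SE 0.33). GARS1 differed by 0.45 without cell line replicate 2, QARS1 by 0.39 without gliospheres replicate 3, TARS1 by 0.32 without cell line replicate 1 and 1.18 without cell line replicate 2, and FARSA by -0.53 without cell line replicate 3. Without cell line replicate 2, 10 members were higher and 6 lower, and CARS2 (-1.75, adjusted p = 0.0317) and FARSA (-1.29, adjusted p = 0.0209) passed the adjusted test. TARS2 passed without cell line replicate 3 (-0.79, adjusted p = 0.0404). The higher count was 3 without gliospheres replicate 1 and 8 without gliospheres replicate 3.

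Negative spheres and cell line are the 2 parts of the control, and 0.0% of all genes differed between them after adjustment. Before adjustment, 6 of 36 members had a p below 0.05 and were higher in negative spheres, where 2.72% of all genes were, and 0 were lower, where 2.51% were. The members' share was 16.7% for higher. IARS2, the isoleucyl-tRNA synthetase of mitochondria, read 10.92 and 10.67 in negative spheres, against 10.11, 9.09 and 10.20 in the cell line, a difference of 1.00 (SE 0.27, 95% interval 0.41 to 1.58, adjusted p = 0.539). In gliospheres it read 9.94, 9.76 and 9.95, below both negative spheres arrays. NARS2, the asparaginyl-tRNA synthetase of mitochondria, read 5.93 and 5.90 in negative spheres, against 5.48, 5.56 and 5.24 in the cell line, a difference of 0.49 (SE 0.13, adjusted p = 0.539).

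WARS1 differed by 0.79 (SE 0.24), with 9.73 and 9.90 in negative spheres against 9.10, 8.66 and 9.34 in the cell line. GARS1 differed by 0.87 (SE 0.27), with 12.68 and 13.21 in negative spheres against 12.32, 11.44 and 12.47 in the cell line, and the adjusted p was 0.622 for both. QARS1 (0.62, SE 0.29) and CARS1 (0.44, SE 0.20) followed. Without cell line replicate 2, GARS1 differed by 0.55 and IARS2 by 0.64, and CARS1 differed by 0.68 and 0.19 without negative spheres replicate 1 or 2. The median over the cytosolic members was 0.34 and over the mitochondrial members 0.03, beside -0.02 over all genes. Cell line replicate 2 held the lowest signal of all 14 arrays for AARS1 (9.23), MARS1 (7.44), GARS1 (11.44) and IARS2 (9.09), and the highest for KARS1 (12.37), EPRS1 (11.95) and NARS1 (15.41), genes that were picked for this after their values were seen.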

How the data were processed

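Per the labels and the study's methods, the authors used the Transcriptome Analysis Console to summarise the raw arrays per transcript cluster (signal space transformation with RMA, which includes quantile normalization), and deposited log2 signals. Of 70523 features, 2995 other probe sets were left out and 67528 clusters tested. Symbols came from the array annotation (23781 clusters with 1 symbol, 1543 with several, 42204 with none; 21497 matched by gene number and 0 symbols updated). The members had 42 clusters, and 6 more with several symbols were not used. VARS1 had 7 clusters, and the brightest, which stands for it here, is named for an alternate haplotype of chromosome 6. Values of its other clusters are not given.

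Fits were made with limma 3.58.1 (lmFit and eBayes, R 4.3.3). The fit of 4 groups (WJT, BMT, gliospheres, control) gave the F-test and 4 comparisons, and a fit of 5 groups gave the other 3. Benjamini-Hochberg adjustment ran over every cluster tested, with calls below an adjusted p of 0.05, and the fits were tested on simulated data. The number of arrays limits the precision. Shares of all genes refer to the brightest 1-symbol cluster of each of 22465 genes. Statistics are given for members that passed, the 4 cytosolic and 2 mitochondrial members of smallest p per comparison, and EPRS1, GARS1, KARS1 and WARS1. Members and lists were chosen with earlier results of these data known, so no list is independent support. Alternatives were 5 groups, only the 2 groups compared, a trended robust prior, quantile normalization, a filter at a mean log2 of 5, median centring, array weights, a replicate block, a gene's mean over its clusters, the study's criterion (fold of 2 or more with an unadjusted p up to 0.05) and each array left out. Pairing by replicate number was checked from the correlation of deviations from group means, since the labels state none: all 3 pairs of gliospheres and cell line arrays were over 0.1 (0.284 to 0.396), and the block changed no call between them. The study's own fold changes were not used. Tables and figures used Python 3.11.15, pandas 2.3.3 and matplotlib 3.10.9.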

Additional observations from a re-analysis of the deposited data

How the results depend on the processing

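Over 42 pairs of a member and a comparison, 947 values under alternatives were compared with the value reported, and 925 kept direction and side of the threshold. The call was lost in 16, all CARS2 in gliospheres against control (adjusted p 0.0238 to 0.312 over its alternatives), a call was gained in 6, and 0 reversed. Gained calls were CARS2, FARSA and TARS2 in gliospheres against cell line or control. Members lower in gliospheres than control at an adjusted p below 0.05 were 0 with 5 groups, only the 2 groups compared, the trended robust prior, quantile normalization or the replicate block, and 0 to 2 with an array left out. The counts of lower members were 1 against negative spheres at the study's criterion (0 to 1 with an array left out), and 1 against the cell line with a mean log2 of at least 5, the mean over all clusters or the study's criterion (0 to 2 with an array left out). At the study's criterion 2 members were higher in WJT than in gliospheres. The F-test called 3 members with array weights, 2 with the mean over all clusters and 1 to 3 with an array left out (3 without cell line replicate 2, 2 without negative spheres replicate 2).

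Medians of the mitochondrial members moved to -0.11 (mean log2 of at least 5) and 0.07 (quantile normalization) in WJT against gliospheres, to 0.12 (median centring) and 0.09 (array weights) in gliospheres against control, to -0.05 (mean log2 of at least 5) and 0.08 (median centring) in WJT against BMT, to -0.11 (quantile normalization) in gliospheres against negative spheres, and to 0.16 (median centring) in gliospheres against cell line. In negative spheres against cell line they moved to -0.01 (mean log2 of at least 5), 0.17 (quantile normalization) and 0.13 (median centring), and the cytosolic median to 0.60 (quantile normalization). Medians of all members moved to 0.12 (median centring) in WJT against BMT, to -0.26 (quantile normalization) in gliospheres against negative spheres, and to 0.38 (quantile normalization) and 0.23 (median centring) in negative spheres against cell line. Median centring subtracts each array's median log2 signal, which was 3.92 in cell line replicate 3 and 3.58 to 3.70 in the other arrays. Beyond this arithmetic, the cause of the moves was not tested.

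With an array left out, medians of all, cytosolic and mitochondrial members ran from 0.04 to 0.07, 0.18 to 0.50 and -0.07 to -0.02 in WJT against gliospheres, from -0.11 to 0.04, -0.11 to 0.19 and -0.12 to 0.02 in BMT against gliospheres, and from 0.00 to 0.15, -0.07 to 0.25 and -0.07 to 0.10 in gliospheres against control. They ran from 0.01 to 0.09, 0.05 to 0.25 and -0.03 to 0.04 in WJT against BMT, from -0.17 to 0.04, -0.19 to 0.07 and -0.06 to 0.02 in gliospheres against negative spheres, from 0.03 to 0.26, -0.01 to 0.36 and -0.01 to 0.08 in gliospheres against cell line, and from 0.08 to 0.19, 0.19 to 0.37 and 0.00 to 0.07 in negative spheres against cell line.

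Apart from gliospheres and cell line, the replicate numbers did not pair the arrays of the groups compared. Over all groups the correlations of same-numbered arrays ran from -0.297 to 0.396, with 11 of 26 pairs over 0.1. By the same measure 13 of 14 arrays correlated best with their own number, a hint from the data and not from the design. Deviations from a group mean are tied within the group, so these matches are not independent of each other. With the replicate block, CARS2 in gliospheres against control had a difference of -1.38 and an adjusted p of 0.0713, and no other call changed. Precision is limited by 2 or 3 arrays a group, and the 4 dimmest members lie close to background.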
